A study of Mus musculus with 6 samples.

Results

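Ribosome biogenesis factors are the proteins that make ribosomal RNA and assemble it with ribosomal proteins, and 58 genes of this kind, chosen by their symbols and known roles, were followed here out of the 54532 genes in the deposited table. All 58 symbols were found, each in a single row, and all 58 had enough reads to be tested. Expression was measured by RNA sequencing in immortalized cardiosphere-derived cells (iCDCs), a mouse line of C57BL/6 strain from the heart ventricle that was isolated from the epicardium and carries an hTERT (telomerase) transgene delivered by lentivirus under puromycin selection. The 3 control libraries came from iCDCs at passage 30 that received no 5-azacytidine. The 3 induced libraries came from the same line and passage after 10 µM 5-azacytidine, an inhibitor of DNA methylation, for 3 days and a further culture that the labels give as IMDM medium with 2% FBS for 4 weeks. All 6 libraries share the strain, the line, the transgene and the passage. The methods of the study name another medium and another duration for the induction, and they describe a growth medium richer in serum but give no time in culture for the control cells that were sequenced. The drug, the serum level and the time in culture therefore cannot be told apart in any comparison given here. All libraries come from this transduced line, and the labels name separate samples without stating that they were separate inductions, so p-values measure the spread between these samples, which may be technical.

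Ribosome synthesis starts in the nucleolus, where RNA polymerase I (Pol I) copies the ribosomal RNA genes into a long precursor. Small nucleolar RNA-protein particles (snoRNPs) modify that precursor, and assembly factors fold and cut it into the small and the large ribosomal subunit, each with its own set of factors. Growing cells spend much of their transcription on this pathway, and the transcription factor Myc is known as a broad activator of its genes.

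Total counts were 19041133 to 19823369 reads per library, and the 14246 genes that passed a filter on low counts held 99.9% of the reads. Levels are given as CPM, read counts scaled to the library total and adjusted by TMM, and such values are shares of the sequenced RNA, not amounts per cell. The cardiosphere surface markers Eng, Thy1 and Ly6a summed to 503 to 508 CPM in control and 563 to 595 CPM in induced libraries, with Eng and Thy1 higher and Ly6a lower (log2 fold change -0.57). All 4 epicardial markers (Tbx18, Upk3b, Wt1 and Tcf21) were detected in every library, with a summed level of 348 to 359 CPM in control and 1021 to 1144 CPM in induced libraries. Most of that sum was Upk3b (mean 254 and 942 CPM), Wt1 and Tcf21 were also higher, and Tbx18 was lower (63.7 and 50.7 CPM, log2 fold change -0.33, edgeR adjusted p 0.000429). Of 8 leukocyte markers, Ptprc, Cd52, Tyrobp, Itgam and Cd3e were at 0 in every library, while the list summed to 24.0 to 26.1 CPM in control and 36.6 to 43.2 CPM in induced libraries. Its 2 main members went opposite ways, Cd68 from a mean of 1.96 to 29.2 CPM and Csf1r from 22.6 to 10.9 CPM, both past the test. The 6 endothelial markers summed to at most 2.31 CPM in any library. Of 8 cardiomyocyte markers, Myh6, Myh7, Actn2, Myl2 and Nppa were at 0.421 CPM or less in every library, and the summed level of 13.1 to 16.1 CPM in control and 59.1 to 62.7 CPM in induced libraries was mostly Tnnt2. What part these marker differences have in the results below was not tested.

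Most of the ribosome biogenesis factors were lower in induced cells. Each gene was tested with the quasi-likelihood method of edgeR, and p-values were adjusted over all genes tested (Benjamini-Hochberg, 0.05). Of the 58 factors 47 were lower, 2 were higher (Rrn3 and Gnl2) and 9 did not pass the test. Among all 14246 genes tested 32.2% were lower and 32.6% were higher. The share of lower factors, 81.0%, was thus well above the background and the share of higher factors, 3.45%, was far under it. The factors and the other gene lists below were chosen with earlier results of these data known. Their shares therefore describe the lists and are not independent support. The median log2 fold change (induced over control) of the factors was -0.42, equal to 74.7% of the control level, while the median of all genes tested was -0.01. In bulk samples such as these, fewer cells of a type and less RNA per cell cannot be told apart.

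Most falls were under 2-fold. The factors ranged from -1.65 to 0.28 on the log2 scale, and the middle of the list lay between -0.62 and -0.19 (quartiles). Of the 58 factors, 22 fell by at least 0.5 on the log2 scale and passed the test, as did 2486 of the 14246 genes tested. A fall of at least 2-fold that also passed the test was seen for 2 factors, Myc and Tcof1, against 7.83% of all genes tested. In 48 factors all 3 induced libraries lay below all 3 control libraries, which 34.5% of all genes tested also did. In 2 factors they lay above, and in 8 factors the groups overlapped. Of the 14246 genes tested, 4860 lay above in this way and 4473 overlapped. Summed over the 58 factors, the level was 4588, 4712 and 4695 CPM in the control libraries and 3302, 3263 and 3355 CPM in the induced libraries. The 3 induced sums thus lay below every control sum, at 70.9% of the control mean. Without Myc, 46 of the 57 other factors were lower and the median was still -0.42.

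**Figure D1:**
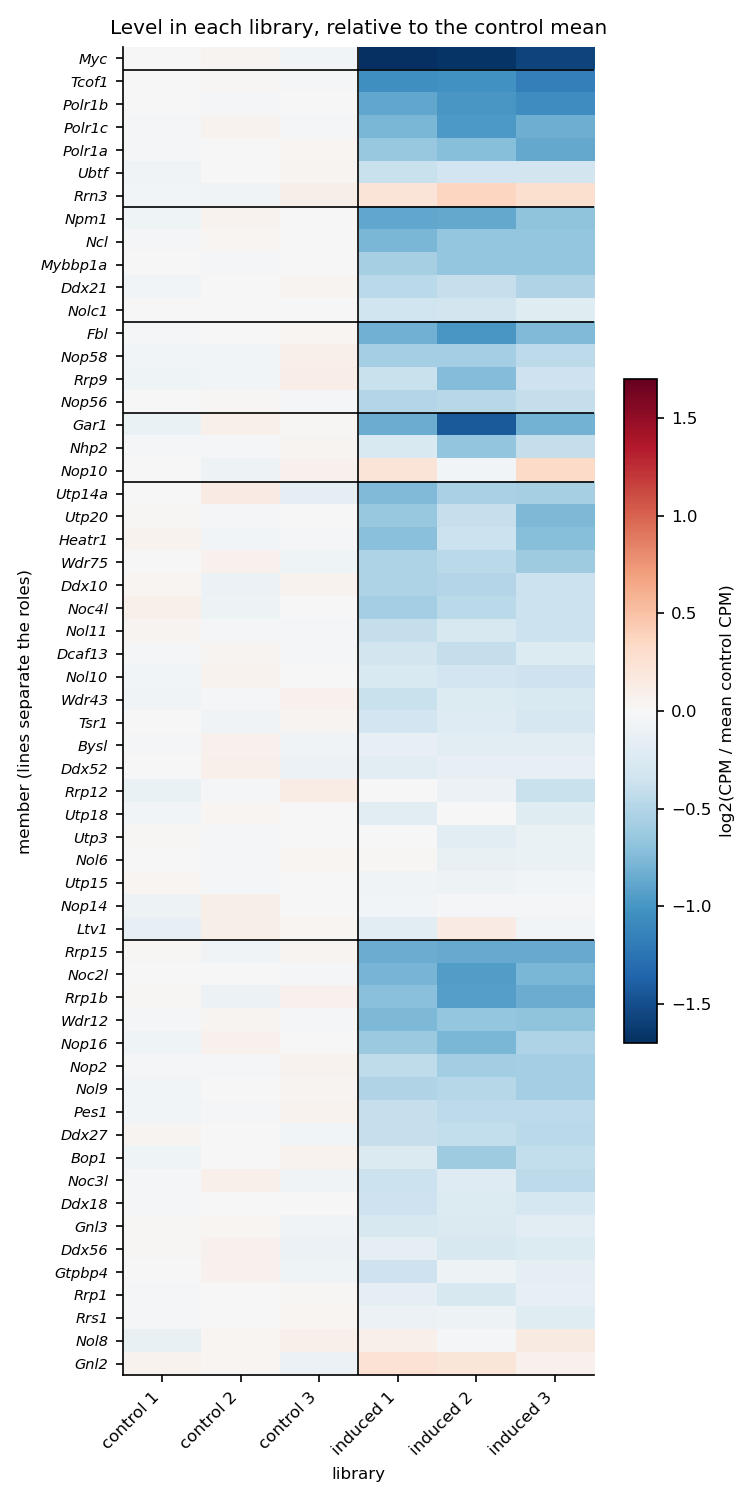
Heat map of the log2 ratio of the CPM in each library (columns, 3 control and 3 induced) to the mean control CPM, for the 58 factors (rows) grouped by role, with lines between the roles. The control columns are near 0 throughout, and in 48 rows all 3 induced columns are below all 3 control columns; Rrn3 and Gnl2 are the rows in which all 3 are above.

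**Figure D2:**
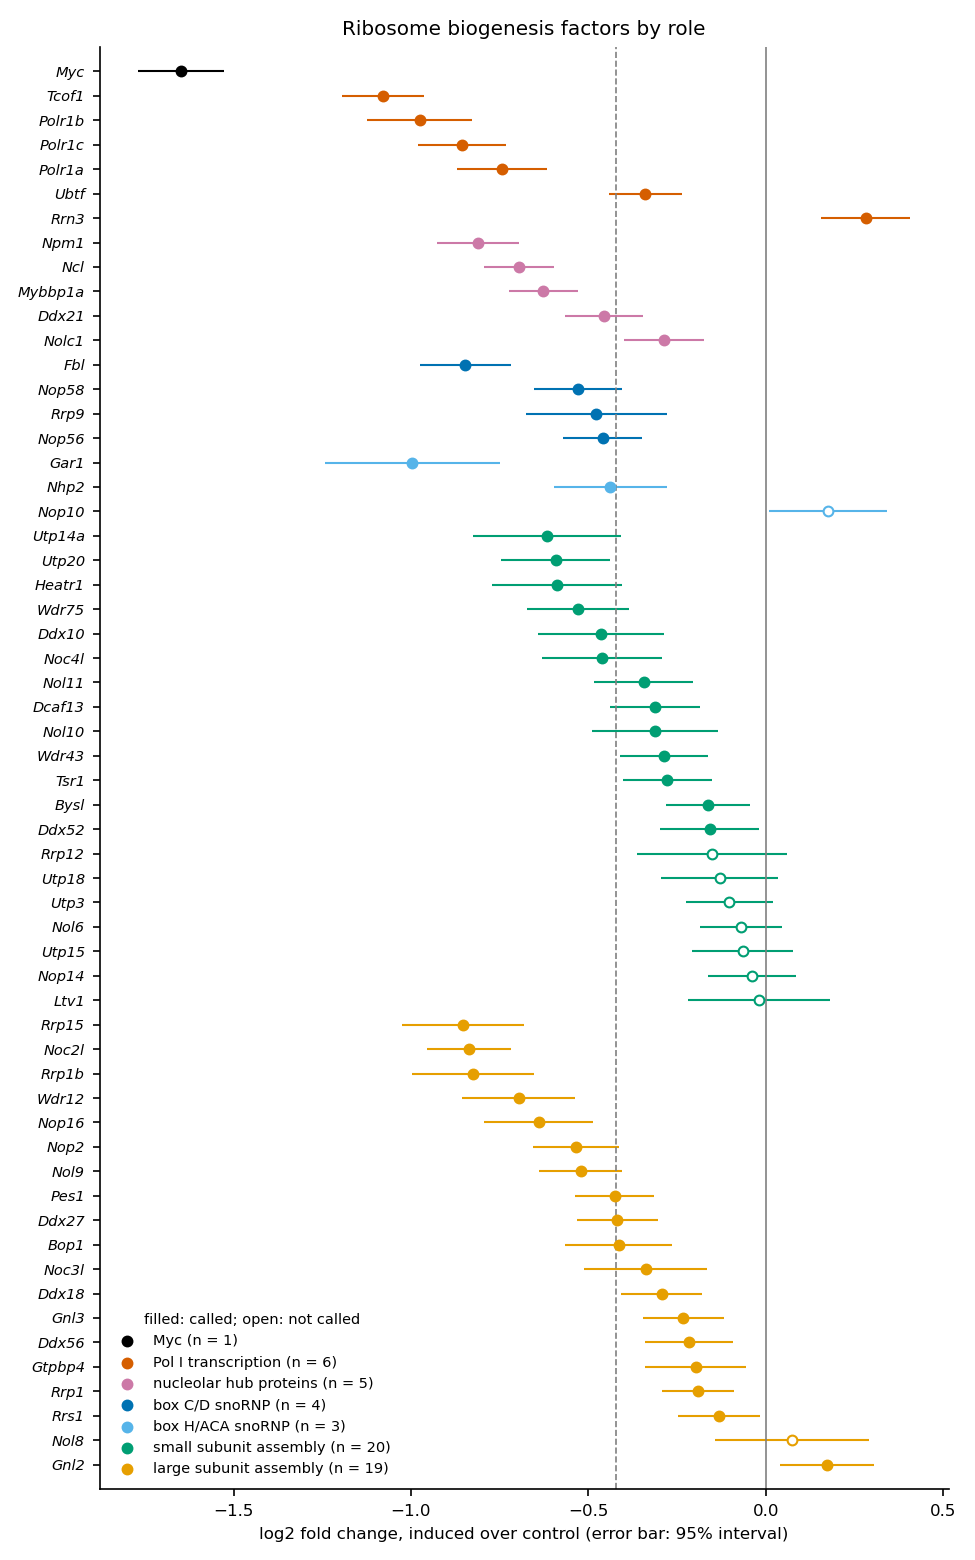
Log2 fold change of each factor, induced over control (3 libraries a group), with its 95% interval, grouped and coloured by role; filled points passed the test, open points did not, the solid line is at 0 and the dashed line is the median of the 58 factors. Myc is farthest to the left at -1.65, and the 9 open points include 7 factors of small subunit assembly.

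Myc, which pairs with Max and binds DNA at E-boxes, was the factor with the largest change. Its level was 87.4, 89.95 and 84.9 CPM in the control libraries and 26.7, 27.6 and 29.4 CPM in the induced libraries. The groups were far apart and the induced libraries held 31.9% of the control level (log2 fold change -1.65 with an SE of 0.06, edgeR adjusted p 2.17e-14). Myc is on chromosome 15 (61985391 to 61990374, plus strand), as are the factors Dcaf13 and Bop1. The 561 genes tested on that chromosome had a median log2 fold change of -0.24, against 0.00 for the genes on all other chromosomes, and the part this has in the fall of Myc was not tested.

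Of 12 other genes of the Myc network, all of them tested, 3 were lower (25%), 4 were higher (33.3%) and 5 did not pass the test, shares near those of all genes tested (32.2% and 32.6%). Their median log2 fold change was 0.05. Among the partners and antagonists, Mxd3, a repressor that also pairs with Max, was at 15.1, 16.8 and 17.2 CPM in control cells against 4.09, 4.31 and 4.25 CPM after induction, with no overlap (log2 fold change -1.96 with an SE of 0.12, edgeR adjusted p 4.36e-11). Mxd4, another such repressor, was higher in every induced library, at 193, 189 and 184 CPM in control cells against 247, 224 and 243 CPM after induction (log2 fold change 0.34 with an SE of 0.05, edgeR adjusted p 1.05e-05). Mlx, which pairs with Mxd and Mondo proteins, was at 26.4, 27.5 and 27.7 CPM in control cells against 35.9, 33.5 and 35.7 CPM after induction and was likewise higher (log2 fold change 0.37 with an SE of 0.07, edgeR adjusted p 8.72e-05). Of the Myc paralogues, Mycl was lower from a very low level, at 1.06, 1.53 and 1.45 CPM in control cells against 0.106, 0.368 and 0.367 CPM after induction (log2 fold change -2.24 with an SE of 0.42, edgeR adjusted p 0.000129). Mycn, at 21.6, 18.8 and 19.1 CPM in control cells against 21.4, 22.1 and 19.9 CPM after induction, overlapped between the groups and did not pass the test (log2 fold change 0.09 with an SE of 0.08, edgeR adjusted p 0.347). Mxd1 was lower (log2 fold change -0.30), and Max and Mxi1 were higher (0.18 and 0.36), all with an adjusted p under 0.05.

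**Figure D3:**
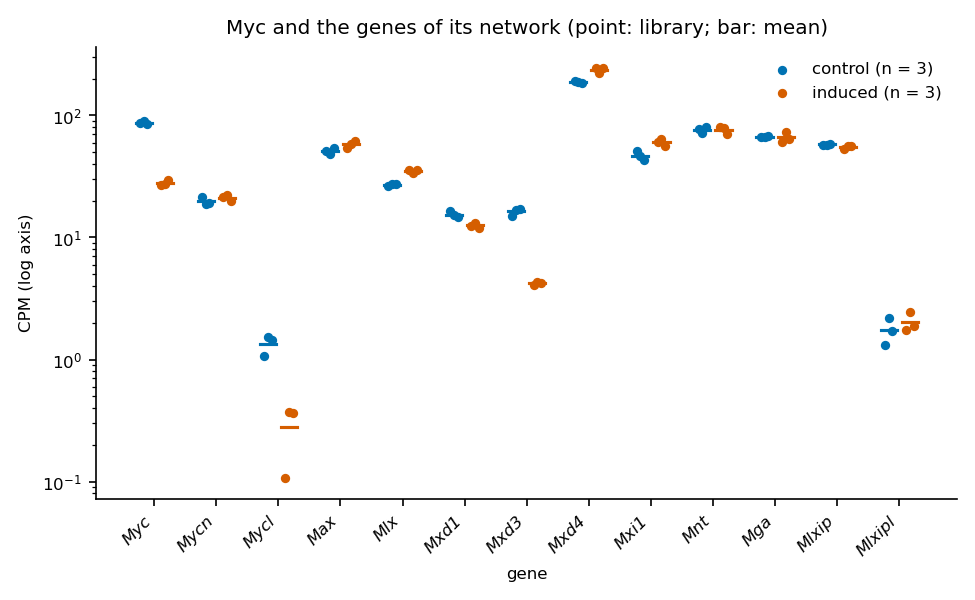
CPM (log axis) of Myc and of 12 genes of its network in each library (points, 3 control and 3 induced), with the group mean as a bar. Myc, Mxd3 and Mycl are clearly lower in the induced libraries, whereas Mlx, Mxd4, Mxi1 and Max are slightly higher.

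The Pol I group had the lowest median of the roles with several factors, and also an exception. Of its 6 factors 5 were lower (83.3%, against 32.2% of all genes tested) and 1 was higher (16.7%, against 32.6%). The median was -0.80. Tcof1 (treacle), a nucleolar protein that promotes Pol I transcription, was at 86.3, 88.1 and 85.5 CPM in the control libraries and 41.9, 42.5 and 38.6 CPM in the induced libraries. The induced libraries were all under the lowest control library, at 47.3% of the control level (log2 fold change -1.08 with an SE of 0.06, edgeR adjusted p 5.35e-12). Polr1b, the second largest subunit of the enzyme, was at 38.3, 37.3 and 38.2 CPM in the control libraries and 20.6, 19.04 and 18.2 CPM in the induced libraries. Again there was no overlap (log2 fold change -0.98 with an SE of 0.07, edgeR adjusted p 7.87e-10). Polr1a, the largest subunit, was at 90.5, 91.4 and 94.4 CPM in control cells against 59.1, 55.5 and 50.3 CPM after induction, and every induced library was lower (log2 fold change -0.74 with an SE of 0.06, edgeR adjusted p 3.51e-09). Polr1c, a subunit that Pol I shares with RNA polymerase III, was at 91.2, 97.4 and 91.8 CPM in control cells against 54.6, 47.7 and 52.6 CPM after induction. Its groups were equally well separated (log2 fold change -0.86 with an SE of 0.06, edgeR adjusted p 3.87e-10), so these 3 subunits fell to between 50.9% and 59.7% of their control levels. Other subunits, followed in a list of further Pol I factors, ranged more widely: Polr1e was at 56.2% and Polr1d at 86.04% of control, both lower by the test, Cd3eap was higher at 117%, and Twistnb and Znrd1, at 94.9% and 109.7%, did not pass. Ubtf, which binds the ribosomal RNA genes and keeps them open, fell less. It was at 188, 196 and 202 CPM in the control libraries and 149.7, 155 and 158 CPM in the induced libraries, without overlap (log2 fold change -0.34 with an SE of 0.05, edgeR adjusted p 6.97e-06). Rrn3, the factor that links Pol I to its promoter, was higher instead. Its level was 52.8, 52.2 and 58.2 CPM in the control libraries and 63.1, 69.8 and 65.6 CPM in the induced libraries. Every induced library was above every control library (log2 fold change 0.28 with an SE of 0.06, edgeR adjusted p 0.000426), and the rise was to 122% of the control level.

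The nucleolar proteins that serve several steps all fell. Of these factors 5 of 5 were lower, against 32.2% of all genes tested, with a median of -0.63. In none of them did the groups overlap, and 34.5% of all genes tested also lay lower without overlap. Npm1 (nucleophosmin), a chaperone for histones and ribosomal proteins, was at 554, 608 and 585 CPM in the control libraries and 316, 317 and 362 CPM in the induced libraries. The induced libraries held 57.0% of the control level (log2 fold change -0.81 with an SE of 0.06, edgeR adjusted p 3.31e-10). Npm1 has 4 copies at other loci that match long stretches of its transcript at 95% identity or more, so its reads may have been split among loci and its value is uncertain. Ncl (nucleolin), which binds the precursor RNA, was at 511, 534 and 518 CPM in control cells against 304, 329 and 332 CPM after induction, lower in every induced library (log2 fold change -0.70 with an SE of 0.05, edgeR adjusted p 2.86e-10). Mybbp1a, a nucleolar protein that binds Myb and takes part in ribosomal RNA production, was at 312, 307 and 312 CPM in control cells against 209.6, 196 and 197 CPM after induction, with the groups well apart (log2 fold change -0.63 with an SE of 0.05, edgeR adjusted p 9.85e-10). The RNA helicase Ddx21 and the snoRNP chaperone Nolc1 had log2 fold changes of -0.46 and -0.29, the smaller falls of the group.

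The box C/D snoRNPs add methyl groups to the sugars of ribosomal RNA. All 4 of their factors were lower, against 32.2% of all genes tested, with a median of -0.50. Fbl (fibrillarin), the methyltransferase of the particle, was at 92.6, 93.3 and 96.4 CPM in the control libraries and 53.6, 47.5 and 55.9 CPM in the induced libraries. The lowest control library was well above the highest induced library (log2 fold change -0.85 with an SE of 0.06, edgeR adjusted p 6.71e-10), although 83.3% of the Fbl transcript is shared with copies at other loci and its count is uncertain. The scaffold proteins Nop58 and Nop56 fell by 0.53 and 0.46 on the log2 scale, and Rrp9, a protein of the U3 particle, fell by 0.48. Nop56 also has copies elsewhere and holds snoRNA genes in its own exons, so its value is uncertain too.

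The box H/ACA snoRNPs, which turn uridines into pseudouridine and whose core proteins also sit on the telomerase RNA, did not move evenly. Gar1 was at 26.96, 31.04 and 29.5 CPM in the control libraries and 16.3, 10.9 and 16.7 CPM in the induced libraries. All 3 induced libraries were lower, with induced 2 the lowest (log2 fold change -0.996 with an SE of 0.12, edgeR adjusted p 5.92e-07). Nhp2 was lower as well (log2 fold change -0.44, adjusted p 5.36e-05). Nop10, the smallest protein of the core, was at 40.9, 38.2 and 42.5 CPM in the control libraries and 47.4, 39.2 and 50.9 CPM in the induced libraries. Induced 1 and 3 were above all control libraries and induced 2 lay within their range, so the groups overlapped and the difference did not pass the test (log2 fold change 0.18 with an SE of 0.08, edgeR adjusted p 0.0591). Without induced replicate 2, Nop10 was higher by 0.28 with an adjusted p of 0.000169, and without control replicate 3 by 0.22 with 0.0485. Measured per gene length, FPKM went from 16.9 ± 1.17 to 8.52 ± 1.90 for Gar1, from 62.5 ± 1.74 to 46.5 ± 6.54 for Nhp2 and from 36.2 ± 2.02 to 41.2 ± 5.46 for Nop10 (mean ± SD, n = 3). The catalytic protein of the same particle, Dkc1 (dyskerin), was followed in a list of other snoRNP factors, and it was at 33.95, 31.3 and 34.3 CPM in control cells against 13.9, 13.3 and 14.9 CPM after induction, with no overlap (log2 fold change -1.24 with an SE of 0.08, edgeR adjusted p 1.31e-10).

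Induced 2 was below the other induced libraries in Nhp2, Nop10 and Gar1, which are short genes. The log2 ratio of induced 2 to the other induced libraries had a median of -0.33 over the 5 factors with a gene length of up to 2000 bases (Nhp2, Nop10, Gar1, Utp3 and Nop16), of -0.00 over the 34 of up to 5000 bases and of 0.02 over the 19 longer ones. All genes tested showed the same order, with medians of -0.15, -0.03 and 0.07. Without induced replicate 2 the log2 fold changes of Gar1 and Nhp2 were -0.82 and -0.33, both still lower by the test, that of Nop16 was -0.57, and that of Utp3 was -0.06 and still did not pass.

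Small subunit assembly was the group with the most factors that did not pass the test. Of 20 factors 13 were lower (65%, against 32.2% of all genes tested) and 7 did not pass. The median was -0.28 and the range was from -0.62 to -0.02. Utp14a, which takes part in cutting the precursor, was at 19.3, 21.3 and 17.3 CPM in the control libraries and 11.5, 13.2 and 13.1 CPM in the induced libraries. The groups were separate (log2 fold change -0.62 with an SE of 0.10, edgeR adjusted p 2.48e-05), and a gene on the opposite strand covers 11.5% of its exon bases. Utp20, a very large scaffold protein, was at 55.2, 53.6 and 55.05 CPM in the control libraries and 35.1, 41.5 and 32.2 CPM in the induced libraries, all induced libraries being lower (log2 fold change -0.59 with an SE of 0.07, edgeR adjusted p 1.06e-06). Heatr1, another large scaffold, was at 38.1, 35.4 and 36.1 CPM in the control libraries and 22.3, 28.5 and 22.1 CPM in the induced libraries. Its induced libraries were again all lower (log2 fold change -0.59 with an SE of 0.09, edgeR adjusted p 9.18e-06), and in both Utp20 and Heatr1 induced 2 was the highest of the 3.

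Heatr1 belongs to the t-UTP complex, which is the first to join the nascent precursor and is also needed for Pol I transcription. Its partners Wdr75, Nol11 and Wdr43 fell by 0.53, 0.34 and 0.29 on the log2 scale and passed the test. For Nol11, a gene on the opposite strand covers 8.16% of the exon bases. Utp15, also of that complex, was at 28.4, 27.2 and 27.6 CPM in control cells against 26.7, 26.04 and 26.9 CPM after induction. All induced libraries of Utp15 lay below all control libraries by a narrow margin, and the difference did not pass the test (log2 fold change -0.06 with an SE of 0.07, edgeR adjusted p 0.42, 95% interval -0.21 to 0.08).

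The other 6 small subunit factors that did not pass had overlapping groups. Ltv1, which acts late in the cytoplasm, was at 17.4, 20.6 and 19.7 CPM in control cells against 17.1, 21.2 and 18.7 CPM after induction (log2 fold change -0.02, 95% interval -0.22 to 0.18). Nop14, a factor of the early precursor, was at 42.5, 48.4 and 44.9 CPM in control cells against 44.01, 44.1 and 44.03 CPM after induction and gave -0.04 (-0.16 to 0.09). Nol6, another early factor, was at 65.98, 64.4 and 67.7 CPM in control cells against 66.8, 60.8 and 61.3 CPM after induction and gave -0.07 (-0.19 to 0.05). These 3 intervals hold 0 and none reaches below -0.22, so a fall of the size of the median factor (-0.42) is outside all 3. A fall of -0.42 is also outside the interval of Utp15, given above, and those of Utp3, Utp18 and Rrp12, given next. Utp3, an early nucleolar factor, was at 47.6, 46.3 and 47.2 CPM in control cells against 46.7, 41.3 and 43.5 CPM after induction (-0.10, 95% interval -0.23 to 0.02) and passed the test without induced replicate 1 (adjusted p 0.0422). Utp18, a protein of the early precursor, was at 24.2, 25.7 and 25.2 CPM in control cells against 22.1, 24.9 and 21.6 CPM after induction (-0.13, 95% interval -0.29 to 0.03) and passed without induced replicate 2 (adjusted p 0.0354). Rrp12, an export factor, was at 17.6, 18.6 and 20.6 CPM in control cells against 18.97, 17.7 and 14.6 CPM after induction (-0.15, 95% interval -0.36 to 0.06), and its induced 3 value was the only one under the control range. The falls of the assembly protein Bysl and the helicase Ddx52, -0.16 and -0.16, passed the test only narrowly (adjusted p 0.0167 and 0.0447). That of Bysl was lost when control 1, control 2 or induced 3 was left out (adjusted p 0.0525, 0.112 and 0.0630). That of Ddx52 was lost when control 1, control 2, induced 1 or induced 3 was left out (0.118, 0.208, 0.117 and 0.0814). Both calls also depended on the method with all libraries kept, as described at the end. On the opposite strand Ccnd3 covers 9.37% of the exon bases of Bysl, so the value of Bysl is uncertain. The remaining 5 factors besides Wdr43, the helicase Ddx10, the assembly factors Noc4l, Dcaf13, Nol10 and Tsr1, lay between -0.46 and -0.28, and the value of Tsr1 is uncertain because Srr covers 32.3% of its exon bases on the opposite strand.

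Large subunit assembly was lower in 17 of 19 factors (89.5%, against 32.2% of all genes tested), higher in 1 and without a call in 1. The median was -0.41. Rrp15, an early assembly factor, was at 23.3, 22.1 and 23.9 CPM in the control libraries and 12.9, 12.7 and 12.7 CPM in the induced libraries. The induced libraries were nearly identical and all lower (log2 fold change -0.85 with an SE of 0.08, edgeR adjusted p 4.05e-08). Noc2l, a nucleolar factor that also binds histones, was at 103, 103 and 102 CPM in the control libraries and 59.3, 53.2 and 59.8 CPM in the induced libraries. It was lower in every induced library (log2 fold change -0.84 with an SE of 0.06, edgeR adjusted p 2.79e-10), although Samd11 covers 20.9% of its exon bases on the opposite strand. Rrp1b, a nucleolar protein, was at 31.6, 29.1 and 32.6 CPM in control cells against 19.03, 16.2 and 17.4 CPM after induction, with the groups well apart (log2 fold change -0.82 with an SE of 0.08, edgeR adjusted p 5.53e-08). Its paralogue Rrp1, the most highly expressed gene of this group per length, changed much less, with a log2 fold change of -0.19 (adjusted p 0.00207).

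The 3 proteins of the PeBoW complex, which is needed to process the large subunit RNA, were all lower. Wdr12 fell by 0.70, Pes1 by 0.43 and Bop1 by 0.41 on the log2 scale. Their groups did not overlap, and 34.5% of all genes tested also lay lower without overlap. Pes1 has copies at other loci and is uncertain. The RNA methyltransferase Nop2, the kinase Nol9 and the assembly protein Nop16 fell by 0.53, 0.52 and 0.64. Of the nucleolar GTPases, Gnl3 (nucleostemin), known from stem and proliferating cells, fell by 0.23 and Gtpbp4 by 0.20, the latter with an adjusted p of 0.0155 that rose to between 0.0542 and 0.0996 with control 1, control 2 or induced 1 left out. Gnl2, another of these GTPases, went the other way. It was at 43.5, 42.5 and 38.97 CPM in the control libraries and 49.3, 47.9 and 43.7 CPM in the induced libraries. The groups did not overlap, but the lowest induced library was close to the highest control library (log2 fold change 0.17 with an SE of 0.06, edgeR adjusted p 0.0226). With control 3 or induced 1 left out the rise of Gnl2 did not pass (adjusted p 0.127 and 0.0905). Nol8, the factor with the lowest level per length, was at 10.5, 11.7 and 12.2 CPM in control cells against 12.2, 11.3 and 12.7 CPM after induction. Its groups overlapped and it did not pass the test (log2 fold change 0.07 with an SE of 0.10, edgeR adjusted p 0.542). The helicases Ddx27, Ddx18 and Ddx56 fell by 0.42, 0.29 and 0.22, Noc3l by 0.34, and Rrs1, which helps to bring in a small ribosomal RNA, by 0.13 with an adjusted p of 0.0431, a call lost when any of the control replicates was left out (0.108, 0.0787 and 0.155) or without induced replicate 3 (0.232). The value of Ddx18 is uncertain, since 87.8% of its transcript is matched by copies at other loci.

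Levels can be compared between genes only per length, and FPKM (reads scaled to gene length and library depth) spanned 2 orders of magnitude over the factors. The gene length used can exceed the longest transcript, as in Fbl (4209 and 1197 bases) and Nol8 (9057 and 4765 bases). The order of the factors by FPKM is therefore approximate. In control cells the highest were Npm1 at 216 ± 9.99, Rrp1 at 76.3 ± 1.27, Nhp2 at 62.5 ± 1.74, Mybbp1a at 52.98 ± 0.538 and Ncl at 50.6 ± 1.09 (mean ± SD, n = 3), and the lowest were Nol8 at 1.25 ± 0.0959 and Wdr12 at 2.30 ± 0.0659. Myc stood at 31.9 ± 0.851 in control and 10.2 ± 0.494 in induced cells. The size of the change had little relation to level or length: over the 58 factors Spearman's rho with the log2 fold change was -0.09 for control FPKM and -0.11 for gene length. These are descriptions over genes that share the same 6 libraries.

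**Figure D4:**
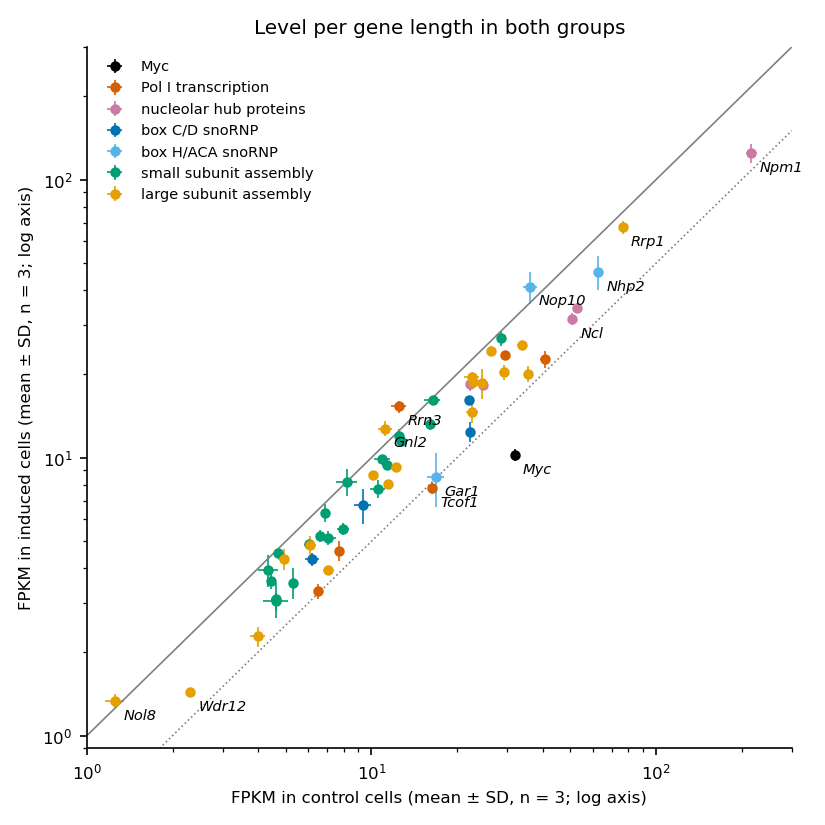
Mean FPKM of each factor in control (horizontal) and induced cells (vertical), both on log axes, with SD over 3 libraries as error bars and colours for the role; the solid line marks equal levels and the dotted line a level 2 times lower in induced cells. Most points lie between the lines at every level, Npm1 is at the upper end with 216 and 124, and Myc and Tcof1 lie under the dotted line.

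The promoters of the factors were searched for the E-box CACGTG, which Myc binds. Most of the factors fell in the same libraries as Myc, and the part that Myc has in their fall was not tested. RefSeq promoter windows of GRCm38.p6, from 250 bases before to 50 bases after the transcription start, were held for 48 of the 58 factors, in 58 windows. Myc, Tcof1, Npm1, Fbl, Nol6, Rrs1, Bop1, Rrp12, Gnl2 and Dcaf13 had no window. The E-box, which reads the same on both strands, was present in 10 of the 48 factors (20.8%), against 11.7% of the 10323 tested genes with a window and 8.09% of all genes. By window the shares were 17.2%, 9.80% and 7.15%. The ETS motif CCGGAAGT, searched on both strands, was in 12 of the 48 factors (25%), 8.94% of tested genes and 4.31% of all genes, and TATAAA, also on both strands, was in 4.17%, 8.65% and 15.7%. No motif contains another, and a match describes the sequence without showing that a factor binds there.

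In 4 factors the E-box lay within the 150 bases before the start, and these stretches are shown because they carry the motif of Myc in factors that fell, rose or did not pass the test. The E-box is in capitals, the strand is that of the gene, and positions are counted from the start. Nol11 is at chr11:107189382-107189531 (minus strand, E-box at -43), Nop2 at chr6:125131733-125131882 (plus strand, -60), Rrn3 at chr16:13780549-13780698 (plus strand, -48) and Utp18 at chr11:93885767-93885916 (minus strand, -20).
Nol11: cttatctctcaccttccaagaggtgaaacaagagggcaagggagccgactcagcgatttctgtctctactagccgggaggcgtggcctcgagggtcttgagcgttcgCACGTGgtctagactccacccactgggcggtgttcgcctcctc
Nop2: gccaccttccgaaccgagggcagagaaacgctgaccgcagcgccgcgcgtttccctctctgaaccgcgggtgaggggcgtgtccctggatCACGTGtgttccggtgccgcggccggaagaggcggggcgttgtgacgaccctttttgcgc
Rrn3: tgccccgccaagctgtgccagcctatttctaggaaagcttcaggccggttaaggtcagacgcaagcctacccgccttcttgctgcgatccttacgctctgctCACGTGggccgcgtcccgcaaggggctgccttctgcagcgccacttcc
Utp18: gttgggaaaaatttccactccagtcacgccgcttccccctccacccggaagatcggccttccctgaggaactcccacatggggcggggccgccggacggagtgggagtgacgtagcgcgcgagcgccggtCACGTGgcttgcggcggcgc

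Factors with an E-box were found among those that fell, rose and did not pass the test. Nol11 and Nop2 fell, by 0.34 and 0.53 on the log2 scale, Rrn3 rose by 0.28 with a further E-box at -215, and Utp18 did not pass the test. In the other 6 factors with the motif (Mybbp1a, Pes1, Utp20, Tsr1, Wdr43 and Ltv1) it lay after the start, and 5 of these 6 fell. Of the 10 factors with an E-box 7 were lower, 1 was higher and 2 did not pass, with a median of -0.32. Of the 38 factors whose windows lacked it 33 were lower and 5 did not pass, with a median of -0.46. Among all genes tested 32.2% were lower, and the part that the E-box has in these changes was not tested.

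Other ribosome biogenesis genes that are not among the 58 factors also leaned towards lower levels. Over 6 further lists with 135 genes, 133 were tested. Of these, 79 were lower (59.4%, against 32.2% of all genes tested). Another 9 were higher (6.77%, against 32.6%) and 45 did not pass, with a median of -0.25. The snoRNP list had the lowest median: of 12 other snoRNP and assembly factors 11 were lower, with a median of -0.42. The AAA proteins Ruvbl1 and Ruvbl2 help to build snoRNPs. Ruvbl1 was at 71.8, 72.5 and 69.98 CPM in control cells against 41.7, 37.6 and 41.04 CPM after induction (log2 fold change -0.83 with an SE of 0.06, edgeR adjusted p 2.97e-10). Ruvbl2 was at 60.96, 66.7 and 65.5 CPM in control cells against 42.2, 34.8 and 42.2 CPM after induction (log2 fold change -0.70 with an SE of 0.07, edgeR adjusted p 6.65e-08).

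For the small subunit, 21 of 33 other factors were lower (63.6%, against 32.2% of all genes tested) and 3 were higher (9.09%, against 32.6%). Their median was -0.25. Rcl1, which joins the small subunit precursor together with the GTPase Bms1, was at 54.7, 54.3 and 52.1 CPM in control cells against 22.9, 21.99 and 22.4 CPM after induction, with a wide gap between the groups (log2 fold change -1.26 with an SE of 0.06, edgeR adjusted p 2.26e-12). Bms1 itself had a log2 fold change of -0.72, and Nob1, the nuclease that makes the last cut, -0.81. The partner of Nob1, Pno1, was higher instead, at 26.8, 24.8 and 23.9 CPM in control cells against 31.7, 31.5 and 33.4 CPM after induction (log2 fold change 0.35 with an SE of 0.07, edgeR adjusted p 0.000247), as were Riok2 (0.25) and Imp4 (0.20). For the large subunit, 22 of 39 tested genes were lower (56.4%) and 3 were higher (7.69%), with a median of -0.30. Mdn1 and Pak1ip1 were at -0.73 and -0.57. The largest rise was that of Rbm28, at 60.6, 60.3 and 56.7 CPM in control cells against 92.9, 101 and 95.4 CPM after induction (log2 fold change 0.70 with an SE of 0.06, edgeR adjusted p 2.29e-09), followed by Sbds, which takes part in the last maturation step of the large subunit, at 0.53, and the helicase Ddx24 at 0.26.

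Of 15 other Pol I factors 8 were lower (53.3%, against 32.2% of all genes tested) and 1 was higher (6.67%, against 32.6%). Their median was -0.22. Polr1e, Taf1d and the shared subunit Polr2f were at -0.83, -0.73 and -0.51, and Cd3eap at 0.23. Of 20 Pol III and 5S factors 9 were lower (45%), 1 was higher (5%) and 10 did not pass, with a median of -0.13. Among these, Polr3b (-0.72), Gtf3c5 (-0.51) and Maf1, a repressor of Pol III (-0.43), were lower and Polr3f (0.28) was higher. Of 14 tested genes of the RNA exosome and rRNA trimming 8 were lower (57.1%) and 1 was higher (7.14%), with a median of -0.25. Dis3 (-0.74), Exosc8 (-0.66) and Xrn2 (-0.43) had the smallest p, while Exosc1 (0.19) was higher at an edgeR adjusted p of 0.0497.

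The ribosomal proteins themselves, which the pathway assembles with ribosomal RNA, were lower in 78 of 79 genes (98.7%, against 32.2% of all genes tested). Their median was -0.53. Their summed level was 73470 to 75750 CPM in control and 42970 to 53470 CPM in induced libraries, with no overlap and with induced 2 the lowest. Rpl13a, Rps2 and Rpl12 had the smallest p, with log2 fold changes of -1.24, -1.02 and -0.94. These genes are short and have many processed copies, so single values are uncertain. Of 20 growth genes known as Myc targets outside the nucleolus 16 were lower (80%) and 3 were higher (15%, against 32.6%). Their median was -0.40. Impdh2, Cad and Paics, enzymes of nucleotide synthesis, were lower (-1.13, -0.90 and -0.67), whereas Odc1, the transferrin receptor Tfrc and Ldha were higher (0.28, 0.54 and 0.12).

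Genes of mitosis fell far more than the ribosome biogenesis factors in the same libraries. All 24 were lower, against 32.2% of all genes tested, with a median of -1.97. Their summed level was 1501 to 1588 CPM in control and 396 to 424 CPM in induced libraries. Cdc20, Bub1b and Mki67 were at -2.39, -2.26 and -2.01. Of the 58 factors Myc alone fell within the range of that list, -2.39 to -1.46. The part that fewer dividing cells have in the fall of the ribosome biogenesis factors was not tested.

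**Figure D5:**
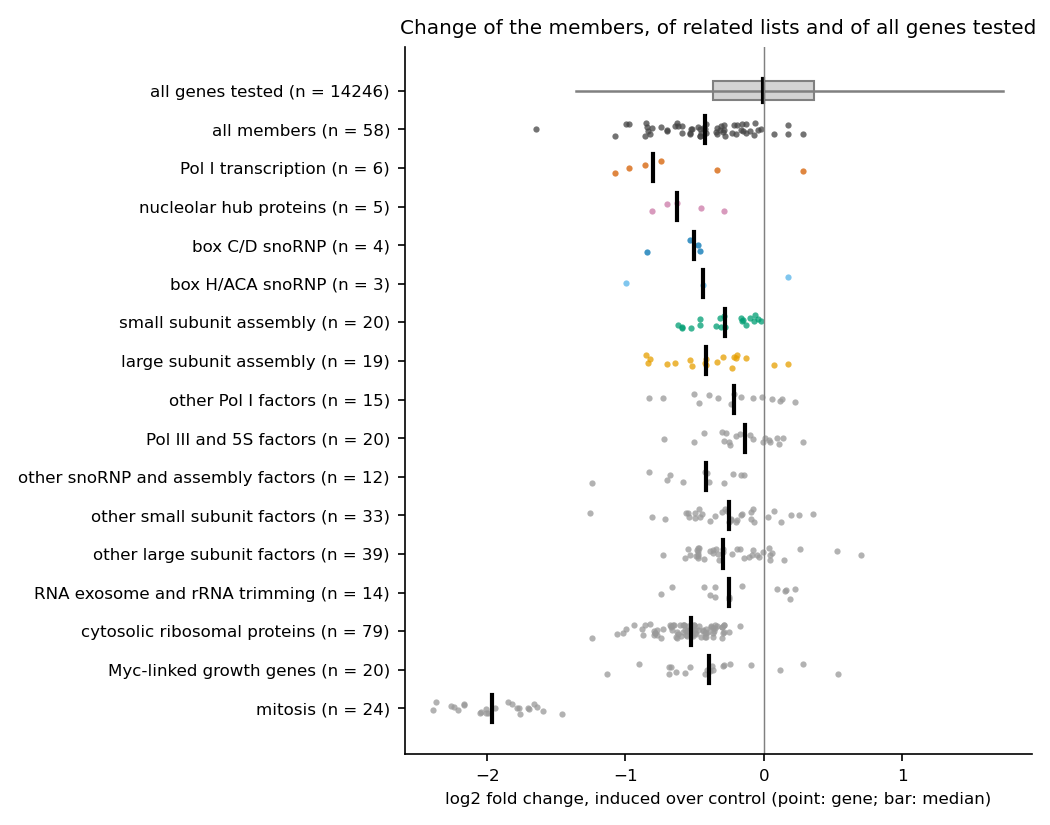
Log2 fold change, induced over control, of all genes tested (box between the quartiles, line between the outer percentiles 5 and 95, bar at the median) and of single genes (points, bar at the median) in the ribosome biogenesis factors, in their roles and in related lists. The median of all genes tested is -0.01, that of the 58 factors is -0.42, that of the ribosomal proteins is -0.53 and that of the mitosis genes is -1.97.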

How the data were processed

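RNA of 3 control and 3 induced samples was sequenced after a NEBNext Ultra library preparation. The submitters' processing notes name HISAT2 2.0.5, featureCounts 1.5.0-p3, DESeq2 1.16.1 and the build mm10, whereas the methods of the study name DESeq with fewer replicates; the strand setting of the counting is not given in the sources used here, so genes that overlap on opposite strands cannot be told apart. The authors deposited a single table with the raw read count per gene and library and, in the same table, FPKM values that were found to be each count over the gene length and over a library depth of 0.980 to 1.03 times the library total. Columns with the authors' fold changes and p-values, and lists of enriched Gene Ontology terms, hold their own comparisons and were not used.

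The count test was that of edgeR 4.0.16 (R 4.3.3), with filterByExpr (minimum count 10, total 15), TMM scaling, and the two-sided quasi-likelihood test of induced against control with Benjamini-Hochberg adjustment over all 14246 genes tested at 0.05. The prior count of fitted folds was 0.125, and each SE was derived from the F statistic. The test was first checked on simulated counts. No pair of libraries was merged, since every pair within a group differed by more than sampling noise (chi-square per degree of freedom 2.56 to 8.91). Totals were 19041133 reads or more per library, and precision is limited by the spread of 3 libraries and, for low genes, by their read counts.

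The 58 factors, their roles, the other gene lists and the tests were chosen with earlier results of these data known. Values in every library are given for Myc, Polr1a, Ubtf, Ncl, Npm1 and Fbl, for the 3 factors with the largest change in each role (1 in roles with under 5 factors) and for every factor that was not called or went against most; of other lists, the 3 genes with the smallest p and up to 5 against the direction of most were named. Of these other genes, some are given with values in every library and some by the log2 fold change alone, a choice made after their values were seen, and further Pol I subunits, Mycn, Max and Mxi1 were added in the same way. As alternatives, the replicate number was used as a block, each library was left out, the threshold was set at 0.01, the filter was removed or tightened, scaling was by median ratios or by totals, DESeq2 1.42.0 took the place of edgeR, and limma 3.58.1 was run on FPKM with a pseudocount of 1 or 0.1 on the log2 scale. Coordinates are those of the deposited table; 98.3% of the 54495 genes shared with GENCODE M21 have the same ones. Copies are other loci that match at least 95% of the bases over at least 20% of the longest transcript.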

Additional observations from a re-analysis of the deposited data

How the results depend on the processing

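The number of genes changed, 9225, lay between 7783 (adjusted p of 0.01) and 9765 (no filter) and the number of lower factors, 47, between 43 and 48 under every alternative; leaving out each library gave 8514 to 9348 genes and 43 to 48 lower factors. With DESeq2, 44 factors were lower and 2 higher. The number of higher factors, 2, became 1 with library totals alone and at an adjusted p of 0.01, where the call of Gnl2 was lost, 3 with median-ratio size factors and with no filter, where Nop10 was called (adjusted p 0.0475 and 0.0194), and 1 to 3 when each library was left out. The median log2 fold change of the factors, -0.42, moved to -0.41 with DESeq2, to -0.41 with median-ratio size factors, to -0.46 with library totals alone, which also shifted the median of all genes to -0.04, to -0.39 with limma on log2(FPKM + 1) and to -0.41 with limma on log2(FPKM + 0.1), and it lay between -0.43 and -0.39 when each library was left out.

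Of 812 values of single factors under alternatives 769 kept their side of the threshold and their direction, and 43 values in 10 factors did not. The sign turned for Nop14 without control replicate 2 (0.0101, with a lowest value of -0.0781 over the libraries left out) and for Ltv1 without control replicate 2 (0.03), control replicate 3 (0.0012), induced replicate 1 (0.0538) and induced replicate 3 (0.0016, with a lowest value of -0.10), none of them called. The other changes were in Nop10, Utp3, Utp18, Ddx52, Bysl, Rrs1, Gnl2 and Gtpbp4, all with a log2 fold change of at most 0.28 in size, and the causes were not tested. With all libraries kept, DESeq2 lost the calls of Ddx52 (adjusted p 0.117), Bysl (0.0619) and Rrs1 (0.128). Median-ratio size factors lost those of Ddx52 (0.0592) and Rrs1 (0.061), as did no filter (0.0874 and 0.115). The 2 limma settings lost those of Ddx52 (0.0604 and 0.0586) and Gtpbp4 (0.0826 and 0.0814). The replicate numbers did not pair the libraries (correlations of the deviations from the group means -0.00, -0.02 and 0.03), and with the replicate block 9063 genes changed, 45 factors were lower, 3 were higher and the median was -0.42; the calls of Ddx52 and Rrs1 were lost and Nop10 was called higher. Groups of 3 libraries, an undetermined number of separate cultures and values relative to the library total limit what small changes can show.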
